A study of Mus musculus with 7 samples.

Results

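The 10 genes described here are known to rise when histone deacetylases are inhibited, and are followed across 7 arrays of mouse embryonic fibroblasts: Clu, Gsn, Txnip, Cryab, Glrx, Rhob, Crip1, Crip2, Mt1 and Mt2. They were taken as a list, chosen with earlier results of these data known. Every probe set annotated to each of them was used, which gave 10 of 12394 genes and 23 of 22690 probe sets. RNA was measured once in each of 7 groups. Fibroblasts lacking p53 (p53-/-, called p53-null) were untreated, or treated with TSA for 24 h or 48 h. Fibroblasts lacking p53 and Dnmt1 (p53-/- Dnmt1-/-, called p53-Dnmt1-null) had the same 3 treatments and a further array 2 weeks after TSA was removed. All 7 groups therefore lack p53. The labels give no TSA dose, embryonic age, strain or number of cultures, and no origin of the alleles. Each group had 1 array, so a difference between 2 single arrays has no replicate check. P-values here rest on how single arrays scatter around an additive model, and that scatter may be technical.

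TSA, trichostatin A, blocks histone deacetylases, the enzymes that take acetyl groups off histones and so help to keep chromatin closed. Dnmt1 copies DNA methylation onto the new strand at each cell division, and methylated promoters can recruit histone deacetylases. The listed genes have no single function. Clu (clusterin) is a secreted chaperone and Cryab (alpha-B crystallin) a small heat shock protein. Txnip binds and inhibits thioredoxin, and Glrx is a glutaredoxin that removes glutathione from protein thiols. Gsn (gelsolin) cuts and caps actin filaments, and Rhob is a small GTPase of endosomes and stress signalling. Crip1 and Crip2 are small proteins built of LIM zinc-binding domains, and the metallothioneins Mt1 and Mt2 bind zinc and copper.

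Promoter sequence was at hand in the RefSeq table (build GRCm38.p6) for 8 of the 10 genes, in 12 windows that run from 250 bases before the start site to 50 bases after it. Clu and Cryab were not among them. Of these windows 6 are printed, chosen with the array values known, each 5′ to 3′ in the direction of transcription: those of gene pairs that lie near each other and had like patterns on the arrays, and those of Txnip and Rhob. The search covered both strands and drew on the letters alone.

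For the metallothioneins the capitals mark the metal response core, TGCACNC or TGCGCNC, the letters to which the zinc sensor Mtf1 is known to bind. Mt1 (chr8:94178839-94179138, plus strand) held 3 matches and Mt2 (chr8:94172368-94172667, plus strand) held 4. Of all 32851 windows in the table, 25.7% held at least 1 match, 1.97% at least 3 and 0.517% at least 4. The start sites of Mt2 and Mt1 are 6471 bases apart, with 0 other genes of the RefSeq table between them.
Mt1: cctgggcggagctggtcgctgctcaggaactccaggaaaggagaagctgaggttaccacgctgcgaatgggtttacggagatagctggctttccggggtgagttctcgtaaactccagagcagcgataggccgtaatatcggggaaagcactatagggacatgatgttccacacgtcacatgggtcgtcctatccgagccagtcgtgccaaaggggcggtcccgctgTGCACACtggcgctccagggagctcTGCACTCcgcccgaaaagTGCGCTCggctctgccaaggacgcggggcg
Mt2: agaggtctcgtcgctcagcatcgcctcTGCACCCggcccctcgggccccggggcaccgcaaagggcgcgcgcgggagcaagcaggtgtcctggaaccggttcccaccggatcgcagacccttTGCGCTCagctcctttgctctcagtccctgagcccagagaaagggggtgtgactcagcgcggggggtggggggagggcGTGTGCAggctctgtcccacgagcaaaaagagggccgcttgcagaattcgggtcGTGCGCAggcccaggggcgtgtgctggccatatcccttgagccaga

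For Txnip and Rhob the capitals mark CCAAT or its reverse ATTGG, the letters bound by the factor NF-Y. Each held 2 matches, and 37.4% of all windows held at least 1 and 11.7% at least 2. The Txnip window is chr3:96557707-96558006 on the plus strand and the Rhob window chr12:8499960-8500259 on the minus strand.
Txnip: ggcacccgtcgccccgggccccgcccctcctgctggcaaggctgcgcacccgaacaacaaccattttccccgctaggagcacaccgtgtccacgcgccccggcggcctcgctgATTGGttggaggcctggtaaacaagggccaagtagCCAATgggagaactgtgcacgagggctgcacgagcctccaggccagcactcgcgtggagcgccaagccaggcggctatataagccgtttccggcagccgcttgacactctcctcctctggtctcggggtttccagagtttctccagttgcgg
Rhob: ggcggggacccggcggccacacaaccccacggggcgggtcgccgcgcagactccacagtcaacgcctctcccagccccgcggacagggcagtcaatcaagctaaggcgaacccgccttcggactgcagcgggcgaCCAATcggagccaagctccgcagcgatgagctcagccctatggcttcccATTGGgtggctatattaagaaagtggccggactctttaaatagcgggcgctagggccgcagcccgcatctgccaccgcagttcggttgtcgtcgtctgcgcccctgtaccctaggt

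For Crip1 and Crip2 the capitals mark CG, the pair of bases that Dnmt1 methylates. Crip1 (chr12:113151762-113152061, plus strand) held 18 CG pairs and the upstream window of Crip2 (chr12:113139986-113140285, plus strand) held 29, against a median of 7 over all windows. DNA methylation itself was not measured in these samples. The start sites of Crip1 and of this Crip2 window are 11776 bases apart, with 1 gene of the table, Gm30599, between them.
Crip1: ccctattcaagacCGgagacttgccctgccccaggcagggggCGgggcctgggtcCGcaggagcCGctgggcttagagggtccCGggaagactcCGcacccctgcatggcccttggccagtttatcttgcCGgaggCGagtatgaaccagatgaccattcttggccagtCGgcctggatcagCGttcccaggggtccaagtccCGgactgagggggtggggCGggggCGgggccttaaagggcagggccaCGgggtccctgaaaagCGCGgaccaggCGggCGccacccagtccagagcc
Crip2: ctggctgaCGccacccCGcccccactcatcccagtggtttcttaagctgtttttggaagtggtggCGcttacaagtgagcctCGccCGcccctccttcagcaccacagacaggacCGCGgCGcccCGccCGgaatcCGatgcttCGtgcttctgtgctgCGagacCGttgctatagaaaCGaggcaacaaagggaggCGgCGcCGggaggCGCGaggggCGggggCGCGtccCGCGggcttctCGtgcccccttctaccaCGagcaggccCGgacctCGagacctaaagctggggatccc

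CG counts in the other windows were 24 for Mt1, Mt2 and Txnip, 29 for Rhob and 36 for a further start site of Crip2. They were 20, 2 and 16 for the 3 start sites of Gsn and 4 for both windows of Glrx, which overlap. Whether CG counts go with the genotype differences given below was not tested. The GC box GGGCGG, a site of the factor Sp1, was matched 3 times in Mt1 and Crip1, 4 times in the printed Crip2 window and 0 times in Mt2. It was matched 1 time in Txnip and Rhob, 5 times in the further Crip2 window, 3, 1 and 2 times in the windows of Gsn and 0 times in Glrx. Of all windows, 35.7% held at least 1, 10.7% at least 3 and 5.49% at least 4. In Mt1 a GC box match shares a base with a metal response core. CCAAT was also matched 3 times and 1 time in windows of Gsn and 1 time in the further Crip2 window, and 0 times in Mt1 and Mt2. The metal response core had 1 match each in windows of Gsn, Txnip, Glrx and Rhob and 2 in the further Crip2 window. CACGTG, GAANNTTC and TATAAA, searched for E-boxes, heat shock factor sites and TATA boxes, had 0 matches in the 12 windows. They are held by 7.15%, 7.86% and 13.6% of all windows. Only these exact letters were searched, so other forms of such sites, and sites outside the windows, were not counted.

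**Figure D1:**
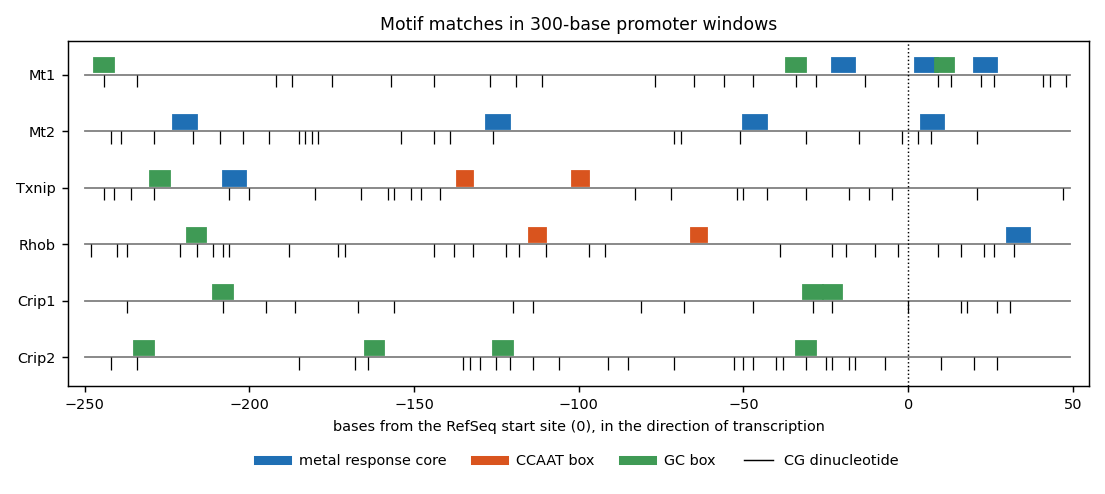
Matches to the metal response core, the CCAAT box and the GC box (coloured blocks above each line) and CG pairs (ticks below) in the 6 printed windows, by distance in bases from the RefSeq start site. Mt1 carries 3 metal response cores and Mt2 carries 4, while Txnip and Rhob each carry 2 CCAAT matches.

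A probe set was tested if its signal exceeded the median of all signals, 45.6, on at least 1 array. Of the 23 member probe sets 20 did so, and each of the 10 genes had at least 1. The other 3, below the median on all 7 arrays, were 1456568_at of Gsn (0.2 to 3.8), 1435837_at of Cryab (14.1 to 25.8) and 1451612_at of Mt1 (1.4 to 18.7). Just inside the limit lay 1456569_x_at of Gsn, with a highest signal of 76.2. Each gene is led below by its brightest probe set. Signals are linear MAS5 values, and differences are on the scale log2(signal + 11.4), where the offset limits the ratios of dim probe sets.

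The arrays had the same 2% trimmed mean and medians from 41.9 to 48.8. Signal of Dnmt1, the targeted gene, was 308.2 to 695.6 in p53-null and 74.0 to 206.5 in p53-Dnmt1-null cells (1422946_a_at). All 7 arrays are counted in the marker sums. Fibroblast markers were present in both genotypes, with summed signals over 8 genes of 21600.5 to 25836.0 in p53-null cells and 5953.2 to 11114.7 in p53-Dnmt1-null cells. Vim alone gave 5662.4 of the 21600.5 in untreated p53-null cells and 5044.9 of the 9031.2 in untreated p53-Dnmt1-null cells. Over 5 epithelial markers the sums were 119.4 to 384.6 and 6691.4 to 11344.2, and over 3 mesothelial markers 19.6 to 33.9 and 2989.6 to 6978.6. Limma called all 8 of these epithelial and mesothelial genes higher with Dnmt1 lost, beside 17.6% of all probe sets tested. Krt18, Cdh1, Epcam, Msln, Upk3b and Wt1 were below the filter of 45.6 on every p53-null array. They could therefore be tested only through their signal in p53-Dnmt1-null cells. Epcam passed on 1 array alone, at 108.7 (p53-Dnmt1-null, 24 h). Of the 8 fibroblast genes 6 were lower, beside 19.3% of all probe sets, 1 was higher (Dcn, 2.20) and 1 neither. The cultures thus differed in such markers as well as in genotype. Their part in the members' genotype differences was not tested, and fewer cells of a type cannot be told apart from less RNA per cell. Of 5 macrophage markers 3 passed the filter and 3 were higher, with sums of 96.3 to 139.5 and 180.4 to 406.6. Ptprc, the pan-leukocyte marker, stayed at 11.9 or below. Of 3 endothelial markers 1 passed, with sums of 50.4 to 66.4 and 18.2 to 88.8, and of 4 astrocyte and lens markers 0 did, with sums of 28.3 to 47.2 and 19.1 to 91.7. The ratio of 3′ to 5′ signal of the Gapdh controls was 0.834 to 0.906 on the 7 arrays. The 18S ribosomal RNA control (3′ end) moved with both comparisons below, at 194.0, 337.5 and 228.7 on the p53-null arrays (untreated, 24 h, 48 h), 688.1, 2549.1 and 1292.1 on the matched p53-Dnmt1-null arrays and 93.6 after removal. At each matched time the p53-Dnmt1-null array was the higher, and each TSA array was above its untreated one, and its part in the members' genotype and TSA differences was not tested.

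**Figure D2:**
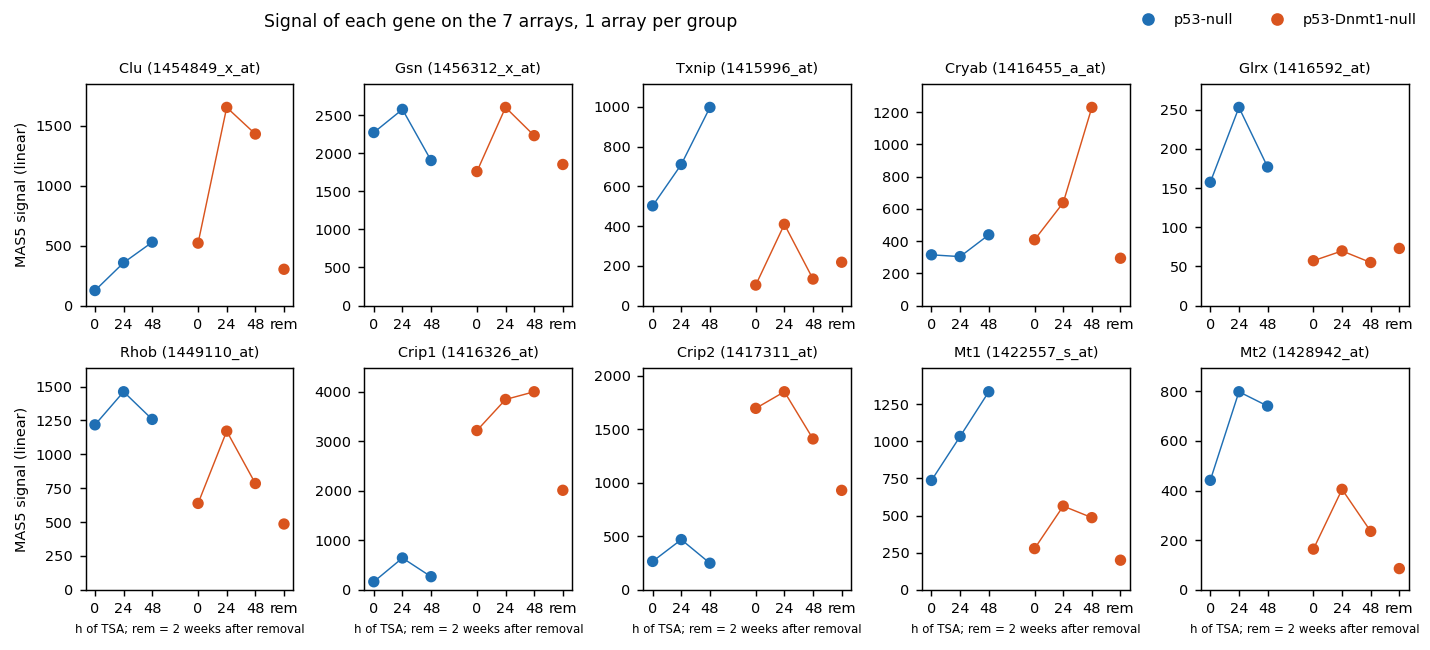
Linear MAS5 signal (y axis, from 0) of the brightest probe set of each of the 10 genes on each array, by hours of TSA and 2 weeks after removal (x axis). Each point is 1 array, with p53-null arrays in blue and p53-Dnmt1-null arrays in orange. Crip1 and Crip2 sit higher in orange, and Txnip, Glrx, Mt1 and Mt2 lower. Clu is higher in orange at matched times, but its orange and blue points overlap.

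The first comparison asks how the genes differed between the genotypes, with untreated, 24 h and 48 h arrays matched by time. All 10 genes had at least 1 probe set called in limma's additive model of genotype and time over 6 arrays. The calls of Cryab, Rhob and Gsn were each lost under 1 alternative given below. With 1 probe set per gene, Gsn was also not called. Clu, Cryab, Crip1 and Crip2 were higher in p53-Dnmt1-null cells, and Txnip, Glrx, Gsn, Rhob, Mt1 and Mt2 were lower. Of the 20 probe sets tested, 8 were called higher, against 17.6% of all 14012 probe sets, and 8 lower, against 19.3%. Probe sets of 1 gene read the same RNA and are not independent. The median difference of the 20 was -0.20, against 0.02 over all probe sets tested.

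The LIM proteins held the largest differences. For Crip1 the p53-null arrays read 163.3, 643.9 and 265.7 (untreated, 24 h and 48 h, the order kept for all genes below) and the p53-Dnmt1-null arrays 3219.6, 3847.7 and 4003.9. The groups were far apart, and the lowest p53-Dnmt1-null array lay well above the highest p53-null array. The difference was 3.54 ± 0.27 in log2 units (with the SE, from 3 arrays of each genotype, limma adjusted p = 2.93e-05). Untreated, Crip1 was 19.7-fold brighter in p53-Dnmt1-null cells. Crip2 followed with 265.4, 469.3 and 248.6 on the p53-null arrays against 1694.8, 1849.8 and 1409.0, again without overlap. Its difference was 2.34 ± 0.17 (limma adjusted p = 2.24e-05). Over the 7 arrays the log2 values of Crip1 and Crip2 correlated at r = 0.981, as a description of arrays that share genotype and treatment.

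Among the chaperones Clu was the gene with the clearest difference, seen by all 4 of its probe sets. Its brightest, 1454849_x_at, read 125.0, 357.4 and 529.1 on the p53-null arrays, against 521.0, 1655.0 and 1432.4 on the p53-Dnmt1-null arrays. These ranges just overlap, because p53-null cells at 48 h of TSA reached the level of untreated p53-Dnmt1-null cells. At matched times p53-Dnmt1-null cells were higher in each case, by 1.85 ± 0.18 (limma adjusted p = 0.000118), and the other probe sets gave 1.74, 1.84 and 2.00. Cryab differed less. It read 314.4, 303.4 and 438.5 on the p53-null arrays, against 408.0, 637.6 and 1229.1 on the p53-Dnmt1-null arrays, so untreated cells were close and the gap was widest at 48 h. The difference of 0.96 ± 0.22 (limma adjusted p = 0.00870) was no longer called without the 48 h pair, at 0.70 with an adjusted p of 0.0968. The other Cryab probe set past the filter gave 0.84, and its call was lost in the same way, at an adjusted p of 0.115.

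The redox genes lay on the other side. Txnip read 501.8, 710.2 and 997.6 on the p53-null arrays, against 102.8, 408.9 and 133.1 on the p53-Dnmt1-null arrays, without overlap. The difference was -1.92 ± 0.33 (limma adjusted p = 0.00233), with the smallest gap at 24 h, -0.78, and the largest at 48 h, -2.80. Its probe set 1415997_at gave -1.59. Glrx read 157.4, 253.0 and 176.9 on the p53-null arrays, against 57.2, 69.7 and 54.9 on the p53-Dnmt1-null arrays, also without overlap, a difference of -1.50 ± 0.18 (limma adjusted p = 0.000395). With its other probe set, 1416593_at, Glrx differed by -1.96. That set read 157.4, 194.9 and 175.2 on the p53-null arrays, against 35.3, 40.6 and 33.7 on the p53-Dnmt1-null arrays. It passed the filter of 45.6 through p53-null cells alone, so the size of its difference is uncertain. Over the alternatives its difference ran from -2.24 to -1.43.

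The metallothioneins were lower in p53-Dnmt1-null cells as a pair. Mt1 read 736.9, 1033.3 and 1334.3 on the p53-null arrays, against 277.8, 564.2 and 486.3 on the p53-Dnmt1-null arrays. Mt2 read 441.2, 798.1 and 740.4 against 164.0, 404.9 and 235.5. Neither gene's ranges overlapped, and the differences were -1.22 ± 0.17 (limma adjusted p = 0.000702) for Mt1 and -1.31 ± 0.18 (limma adjusted p = 0.000793) for Mt2. Their log2 values correlated at r = 0.978 over the 7 arrays, again as a description. The Mt1 probe set, 1422557_s_at, carries the suffix that Affymetrix gives to sets whose probes match more than 1 transcript.

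Rhob and the actin regulator Gsn differed least. Rhob read 1217.8, 1462.1 and 1258.0 on the p53-null arrays, against 638.0, 1171.4 and 784.9 on the p53-Dnmt1-null arrays, without overlap, and was called lower, at -0.64 ± 0.15 (limma adjusted p = 0.0101). Without the 48 h pair Rhob gave -0.62 with an adjusted p of 0.0587. For Gsn the probe sets did not give 1 answer. The brightest by mean log2 value, 1456312_x_at, read 2270.3, 2574.1 and 1903.0 against 1757.8, 2600.0 and 2229.4, with a difference of -0.04 ± 0.12 (limma adjusted p = 0.815) that turned to 0.12 without the untreated pair. Gsn probe set 1415812_at read 2547.9, 2993.5 and 2669.9 against 1638.9, 2374.4 and 2130.5, did not overlap and was called lower, at -0.43 ± 0.10 (limma adjusted p = 0.0110). The sets 1437171_x_at and 1436991_x_at gave -0.50 and -0.36 and missed the threshold, with adjusted p of 0.0582 and 0.103. Gsn therefore counts as lower through 1 of its 5 tested probe sets, and that call was lost when limma was run without the intensity trend, at an adjusted p of 0.0986.

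**Figure D3:**
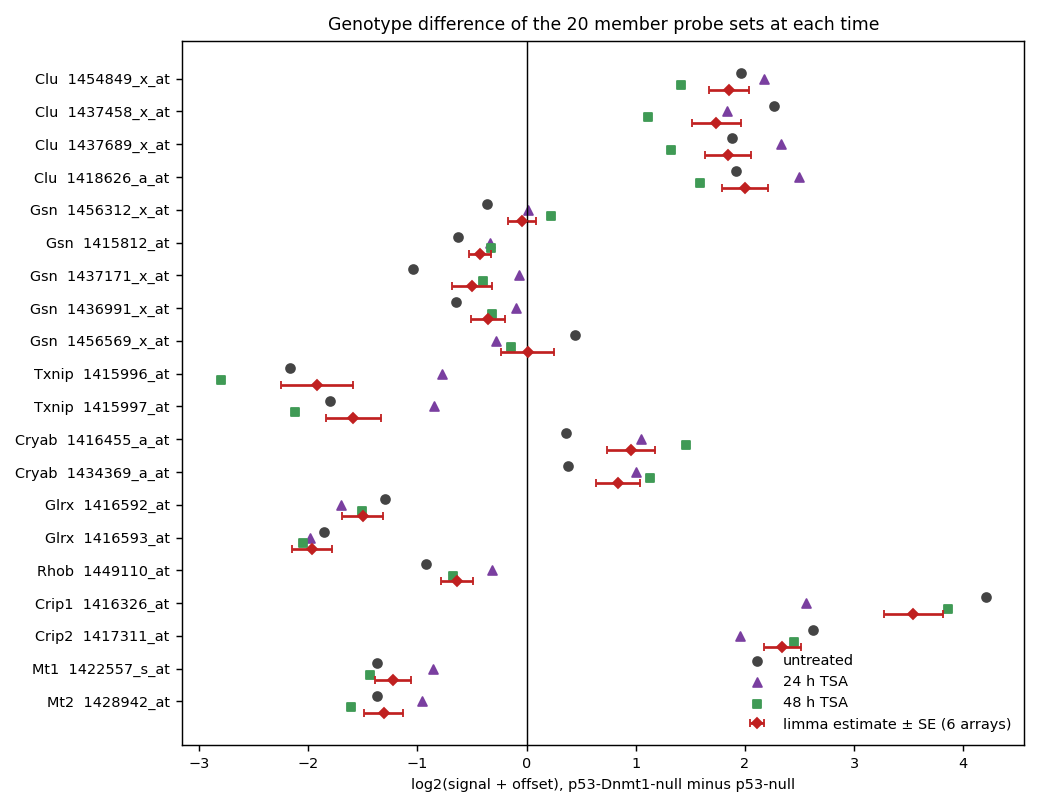
Difference between genotypes on the log2(signal + 11.4) scale (x axis, p53-Dnmt1-null minus p53-null) for the 20 tested probe sets, untreated and at 24 h and 48 h of TSA. Each marker is a pair of single arrays, and red diamonds are limma estimates with their SE over 6 arrays. Crip1 lies farthest to the right, at 3.54, and Glrx probe set 1416593_at farthest to the left among the estimates, at -1.96. That Glrx set was below the filter of 45.6 on every p53-Dnmt1-null array.

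The next comparison describes how genes listed for their response to deacetylase inhibitors differed with TSA here. Because the list was chosen with earlier results of these data known, its counts beside all probe sets do not test whether such genes rise. Averaged over genotypes, the 20 tested probe sets had a median difference of 0.45 between TSA and untreated arrays, against 0.01 over all probe sets tested. Limma called 0 of them higher or lower after adjustment over all probe sets. The backgrounds were 0.0143% higher, which is Nts and Igfbp2, and 0% lower. At an unadjusted p under 0.05 limma gave 8 of the 20 as higher, from Clu, Txnip, Crip1, Mt1 and Mt2, against 7.36% of all probe sets, and 0 as lower, against 7.29%. Of the 10 leading probe sets, 6 were above their untreated array on all 4 TSA arrays, and 0 were below it on all 4. Over all probe sets tested these shares were 17.0% and 18.6%. The study's TSA comparisons at 24 h and 48 h share 1 untreated array in each genotype, so a high or low untreated value would move both.

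Clu had the largest TSA differences of the list in the mean over genotypes. On single arrays the leading Clu set was passed by Crip1 and Cryab, in cases given below, and by Txnip at 24 h in p53-Dnmt1-null cells. In p53-null cells its 4 probe sets were 2.55-fold to 3.72-fold brighter at 24 h and 4.19-fold to 4.83-fold at 48 h. The ratios in p53-Dnmt1-null cells were 2.56 to 4.04 at 24 h and 2.00 to 2.97 at 48 h. Every Clu probe set was thus higher on all 4 TSA arrays, and in p53-null cells the 48 h array was the highest while in p53-Dnmt1-null cells it was the 24 h array. Averaged over genotypes the leading probe set gave 1.63 ± 0.21 (limma adjusted p = 0.0743), and the 4 probe sets ranked 4, 7, 14 and 19 by p among 14012. Over the alternatives the adjusted p of that set ranged from 0.0303 to 0.252. It passed only without the p53-Dnmt1-null 24 h array, where the difference was 1.59 ± 0.22, and 2 Clu probe sets were called, as were 0.164% of all probe sets in that direction. With all arrays, Clu missed the threshold.

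The metallothioneins also lay above their untreated array on all 4 TSA arrays. Mt1 was 1.40-fold and 1.81-fold brighter at 24 h and 48 h in p53-null cells and 2.03-fold and 1.75-fold in p53-Dnmt1-null cells. Mt2 was 1.81-fold and 1.68-fold brighter, and 2.47-fold and 1.44-fold. The differences averaged over genotypes were 0.78 ± 0.19 for Mt1 (limma adjusted p = 0.157) and 0.83 ± 0.24 for Mt2 (limma adjusted p = 0.199), and neither passed.

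Txnip and Rhob had their highest p53-Dnmt1-null signal at 24 h, as did 5 of the other 8 genes. The leading Txnip set went from 102.8 to 408.9 at 24 h, a ratio of 3.98, and was at 133.1 at 48 h. In p53-null cells it was 1.42-fold and 1.99-fold brighter. The other set, 1415997_at, read 94.2, 239.0 and 85.3 on the p53-Dnmt1-null arrays, with 355.9, 438.6 and 409.4 on the p53-null ones, and so was lower than untreated on 1 of 4 TSA arrays. Averaged over genotypes Txnip gave 0.92 ± 0.38 and 0.40 ± 0.34 (limma adjusted p = 0.314 and 0.637). Without the p53-Dnmt1-null 24 h array these were 0.56 and 0.09. Rhob was 1.84-fold brighter at 24 h in p53-Dnmt1-null cells and between 1.03-fold and 1.23-fold at the other 3, a mean difference of 0.37 ± 0.21 (limma adjusted p = 0.465). Its difference without the p53-Dnmt1-null 24 h array was 0.21.

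Cryab and Crip1 had a large difference in 1 genotype only by size. Cryab was 1.56-fold and 3.01-fold brighter in p53-Dnmt1-null cells but 0.965-fold and 1.39-fold in p53-null cells. The difference between these responses was 0.89 ± 0.60 (limma adjusted p = 0.9955). Crip1 was 3.94-fold brighter at 24 h and 1.63-fold at 48 h in p53-null cells, where it was dim, and 1.20-fold and 1.24-fold in p53-Dnmt1-null cells, where it was bright. Its difference, taken the same way as p53-Dnmt1-null minus p53-null, was -1.0 ± 0.62 (limma adjusted p = 0.9955). The TSA response of 0 member probe sets was called different between genotypes, as in 0% of all probe sets in either direction. At an unadjusted p under 0.05 the members were again 0, and the background was 1.37% larger and 2.06% smaller in p53-Dnmt1-null cells. These p-values do not show that the genotypes responded alike, since the SE of the difference was 0.28 to 0.80.

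Gsn, Glrx and Crip2 had small TSA differences in the mean over genotypes, with larger ones on single arrays. At 24 h Gsn set 1437171_x_at was 2.34-fold brighter in p53-Dnmt1-null cells and the other bright Gsn sets 1.45-fold to 1.72-fold. In p53-null cells at 24 h Crip2 was 1.77-fold brighter and the leading Glrx set 1.61-fold. Averaged, Gsn gave 0.21 to 0.49 over its 4 bright probe sets, with adjusted p of 0.347 to 0.627. The dimmest Gsn set tested, 1456569_x_at, pointed the other way at -0.48 ± 0.24 (limma adjusted p = 0.411), and its log2 values correlated at -0.806 to -0.862 with those of the other 4. Glrx gave 0.25 and 0.13 in its probe sets. For Crip2 the mean difference was 0.14 ± 0.26 (limma adjusted p = 0.855), which turned to -0.078 without the p53-null 24 h array.

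By genotype, limma called 0 member probe sets with TSA, as it did for 0% of all probe sets in both directions. Unadjusted p under 0.05 gave 5 of 20 as higher in p53-null cells, from Clu and Crip1, against 4.75%, and 0 lower, against 3.85%. In p53-Dnmt1-null cells it gave 8 higher, from Clu, Gsn, Cryab, Mt1 and Mt2, against 4.95%, and 1 lower, a Gsn set, against 3.15%. A size rule of at least 2-fold at both 24 h and 48 h was met by 4 of 20 in p53-null cells, all of Clu, against 1.51%, and by 3 in p53-Dnmt1-null cells, again of Clu, against 1.71%. The fourth Clu set, 1437458_x_at, gave 0.98 at 48 h and just missed it. At least 2-fold lower at both times were 0 members in either genotype, against 1.03% and 0.378%.

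**Figure D4:**
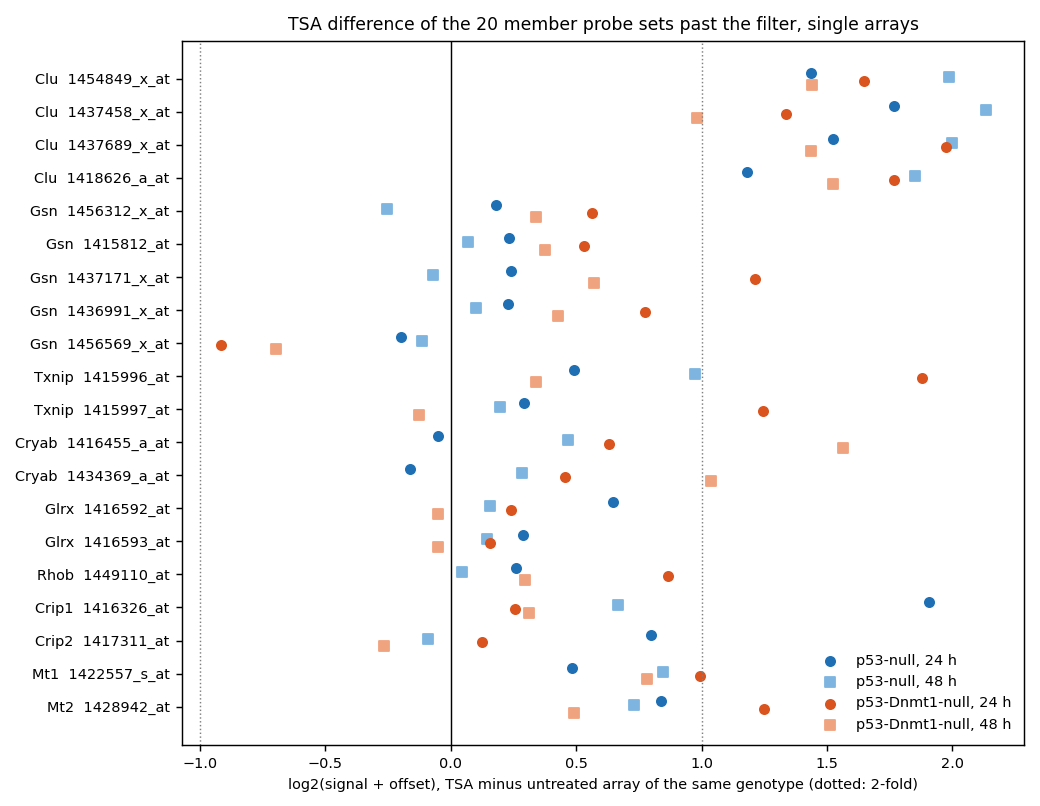
Difference between each TSA array and the untreated array of its genotype on the log2(signal + 11.4) scale (x axis) for the 20 tested probe sets. Circles are 24 h and squares 48 h, in blue for p53-null and orange for p53-Dnmt1-null cells, and dotted lines mark 2-fold. The 4 Clu sets lie between 0.98 and 2.13 on all arrays.

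The p53-Dnmt1-null 24 h array held the highest p53-Dnmt1-null signal for 7 of the 10 genes: Clu, Gsn, Txnip, Rhob, Crip2, Mt1 and Mt2. Of all probe sets tested 27.1% had theirs on it. The same array had the highest 18S control signal of the 7. In p53-null cells the highest signal was on the 24 h array for 6 genes, on the 48 h array for 4 and on the untreated array for 0. Of all probe sets tested, 27.4%, 38.4% and 34.1% had theirs on these arrays.

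After TSA had been removed for 2 weeks, 13 of the 20 probe sets were below the untreated p53-Dnmt1-null array and 7 above it. Of all probe sets tested, 46.3% were above it. The median difference of the 20 was -0.19, against -0.06 over all probe sets. Against the 24 h array 18 of the 20 were below, with a median of -1.14, and against the 48 h array 17, with a median of -0.82. All probe sets had medians of -0.07 and -0.08, with 47% above the 24 h array and 45.7% above the 48 h array. All 3 of these comparisons use the single after-removal array. Clu was at 302.6 in its leading set, against 521.0 untreated and 1655.0 and 1432.4 with TSA. The Clu sets fell into pairs here: 1454849_x_at and 1418626_a_at were at 0.581 and 0.546 of the untreated signal, and 1437458_x_at and 1437689_x_at at 0.944 and 0.963. All 4 were below both TSA arrays. Mt1 was at 199.7 against 277.8 untreated, and Mt2 at 85.6 against 164.0, their lowest signals on any of the 7 arrays. Crip1 was at 2012.1 against 3219.6 and Crip2 at 929.0 against 1694.8, both still above every p53-null array. Rhob was at 485.8 against 638.0, Cryab at 293.3 against 408.0 (327.7 against 308.7 in its other set) and Glrx at 72.9 against 57.2.

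Txnip and Gsn differed by probe set after removal. The leading Txnip set was at 217.9 against 102.8 untreated, a ratio of 2.12, while 1415997_at was at 78.4 against 94.2. Gsn probe set 1415812_at was at 836.8 against 1638.9, a difference of -0.96 ± 0.23 (limma adjusted p = 0.121). The other 3 bright Gsn sets were at 1.01 to 1.05 of untreated. Limma called 0 member probe sets higher or lower after removal, against 0.0143% and 0% of all, and at an unadjusted p under 0.05 it gave 0 higher, against 8.09%, and 1 lower, that Gsn set, against 10.7%. The size rule of 2-fold was met by 1 set, that of Txnip, against 6.73% higher, and by 0 lower, against 8.44%. This test sets 1 array against 1 and assumes that they vary like the 24 h and 48 h arrays. The after-removal array also had the brightest actin control, 7904.8 at the 3′ end against 4822.5 to 5661.0 on the others.

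**Figure D5:**
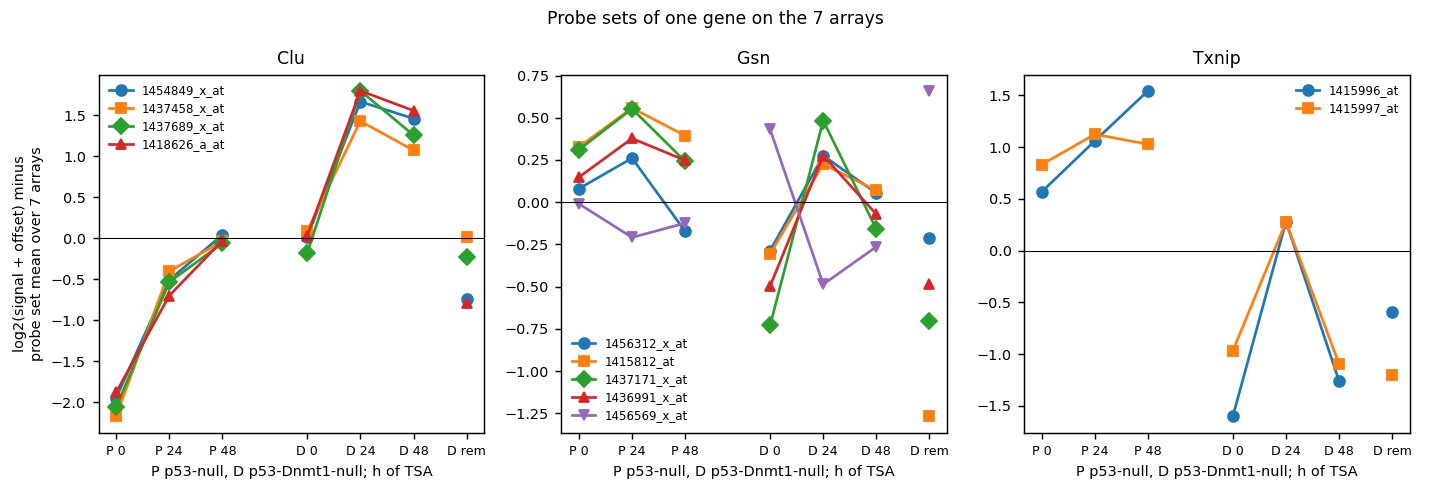
Log2(signal + 11.4) minus the mean over 7 arrays (y axis) for each tested probe set of Clu, Gsn and Txnip on each array (x axis, P for p53-null and D for p53-Dnmt1-null, with hours of TSA). Lines join arrays of 1 genotype. The Clu sets run together up to the after-removal array, and Gsn set 1456569_x_at runs against the others.

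Relatives and partners of the members were listed to see whether their families had the same pattern. Of 30 listed genes, 26 had a probe set and 19 passed the filter. Between genotypes limma called 6 higher and 3 lower, at adjusted p of 2.62e-05 to 0.0424, and 10 did not pass. Of all probe sets tested, 17.6% were called higher and 19.3% lower. Of 4 heat shock relatives of Cryab tested, 3 were higher and 0 lower, as Cryab was higher: Hspb2 by 2.36, Hspb1 by 2.07 and Hspb8 by 0.52. Of 4 thioredoxin and arrestin relatives of Txnip, 1 was higher and 0 lower, thioredoxin itself (Txn1, 0.47). Of 2 glutaredoxin relatives, glutathione reductase (Gsr) was higher by 1.95 and Glrx2 was lower, at -0.80. Of 4 genes of the metal response, 1 was higher and 0 lower, the zinc exporter Slc30a1. Like Mt1 and Mt2 it is a known target of Mtf1, and it differed by 1.33 where the metallothioneins were lower. Slc30a1 read 26.1, 13.9 and 31.8 on the p53-null arrays, against 74.8, 81.0 and 71.2 on the matched p53-Dnmt1-null arrays. It passed the filter of 45.6 through p53-Dnmt1-null cells alone, so the size of its difference is uncertain. Of 3 gelsolin family genes 1 was lower, supervillin (Svil, -1.06), and of 2 LIM proteins 1 was lower, Csrp2 at -1.36. With TSA, limma called 0 of the 19 in the mean over genotypes. At an unadjusted p under 0.05 it gave 1 higher and 0 lower, beside 7.36% and 7.29% of all probe sets.

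Other genes known to respond to deacetylase inhibitors are given beside the members, from lists also chosen with earlier results of these data known. Of 14 further genes known to rise, 13 had a probe set and 12 passed the filter, with a median TSA difference of 0.32. Limma called 0 of them with TSA. At an unadjusted p under 0.05 it gave 2 higher and 0 lower, beside 7.36% and 7.29% of all probe sets. By genotype 2 of the 12 were higher and 4 lower, beside 17.6% and 19.3% of all probe sets. The crosslinking enzyme gene Tgm2 was higher by 2.13. The matrix protease inhibitor Reck was lower, at -4.28, as were the cell cycle inhibitor Cdkn1c at -3.12 and the polyamine acetyltransferase Sat1 at -1.87. Of 10 genes known to fall, 8 passed the filter, with a median TSA difference of -1.0 and 0 called. At an unadjusted p under 0.05 limma gave 5 lower and 0 higher, beside 7.29% and 7.36% of all probe sets. By genotype 5 of these 8 were higher and 1 lower, beside 17.6% and 19.3%. The cell cycle genes Tk1, Ccna2 and Birc5 were higher by 1.45, 1.05 and 0.87, and cyclin D1, Ccnd1, was lower, at -0.88.

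For each member the probe set of another gene with the most similar log2 values over the 7 arrays was found by Pearson's r, which with 7 arrays of few conditions is a description only. Mt2 was closest to the calpain Capn5 (r = 0.998), Crip1 to Park7 (0.997) and Mt1 to the lysosomal protease Ctsb (0.996). Txnip was closest to the glutathione peroxidase Gpx3 (0.995), whose p53-null signals were 118.3, 173.8 and 254.5, against 13.8, 91.5, 24.3 and, after removal, 57.8 on the p53-Dnmt1-null arrays. Rhob was closest to the fucosidase Fuca1 (0.995), Crip2 to Dpysl5 (0.994) and Glrx to Tpbg (0.994). Lower values were found for Cryab with Hacd3 (0.984), Clu with Pts (0.970) and Gsn with the integrin Itga6 (0.966).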

How the data were processed

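The deposited values were linear signal intensities, 1 per probe set and array, which the authors made with MAS5, per the submitters' processing notes, with no version or scaling stated. Per the labels' protocols, TriZol was used to extract RNA, and labelling followed Affymetrix. Here probe sets were named through the platform annotation, with symbols updated by Entrez identifier (RefSeq, GRCm38.p6). Control probe sets (64) were left out. Values were taken as log2(signal + 11.4), the offset being the 25th percentile of all signals, and 14012 probe sets passed the filter of 45.6 on at least 1 array. Models were fitted by limma 3.58.1 (R 4.3.3), eBayes being set to an intensity trend, and p-values were adjusted over these by Benjamini and Hochberg, called at 0.05. The genotype fit had 2 residual degrees of freedom, the TSA mean over genotypes 3 and the fits by genotype 2. In the TSA fits any change from 24 h to 48 h is part of the error, as is a genotype difference that varies with time in the genotype fit. The scripts were tested on simulated data. Alternatives were the offset, filter, normalization, trend, 1 probe set per gene, and leaving out arrays. Named genes were all members, called list genes (at most 4 per list, largest first) and the closest probe set per member. A further list of relatives is not reported here. Members and lists were chosen with earlier results of these data known. The number of arrays limits the precision.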

Additional observations from a re-analysis of the deposited data

How the results depend on the processing

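The genotype counts were 8 higher and 8 lower. With 1 probe set per gene they were 4 and 5 of the 10, beside 19.4% of all 9402 probe sets then tested in either direction. The main fit had called 4 genes higher and 6 lower, each through any of its probe sets. Fewer probe sets were tested, and Gsn also lost its call. Its leading set was the one kept, at -0.04 with a limma adjusted p of 0.810. The mean TSA count of 0 higher ran from 0 to 2 when arrays were left out, 2 without the p53-Dnmt1-null 24 h array. The genotype difference of the leading Gsn set ran from -0.18 to 0.12 without a time pair, and the TSA difference of Crip2 from -0.078 to 0.30 without an array; the cause was not tested. All other counts of members, in the fits by genotype, after removal and by size, stayed within 1.5 times. Over all probe sets, the genotype calls of 2464 higher and 2701 lower became 1323 and 1578 without the 48 h pair, where Cryab and Rhob lost their calls (Gsn lost its call without the trend), and the TSA calls of 2 higher became 23 without the p53-Dnmt1-null 24 h array. Of 190 alternative values for single genes, 185 kept their direction and side of the threshold. The genotype fit pairs arrays by time, and no replicate numbers were there to pair others. The number of arrays limits every comparison, and dim probe sets carry little signal over the offset.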

Other observations

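Some listed genes outside the members had signals that stood out on some arrays. Mt3, a metallothionein of the brain, had a signal of 60.0 in p53-Dnmt1-null cells at 24 h of TSA and 2.0 to 20.1 on the other 6 arrays. Cryaa, the lens crystallin related to Cryab, was at 34.3 and 38.1 in p53-Dnmt1-null cells at 24 h and 48 h and at 2.2 to 7.1 elsewhere, all below the filter of 45.6. Reck was at 114.3, 306.1 and 365.6 in p53-null cells and at 1.1 to 8.9 on the 4 p53-Dnmt1-null arrays. Cdkn1c was at 674.8 in p53-null cells at 48 h, against 167.6 untreated, and at 7.9 to 61.1 in p53-Dnmt1-null cells. These were chosen after their values were seen.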
